A study of Mus musculus with 4 samples.

Results

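Regulatory T cells (Tregs) were studied among the human CD45+ cells that infiltrated MDA-MB-231 tumors in humanized mice. Of the 16327 cells kept from 14 mice, 1031 were taken as Tregs by their counts of unique molecular identifiers (UMIs, each standing for 1 captured RNA molecule). The rule asked for at least 3 UMIs of CD3D, CD3E, CD3G and TRAC together, at least 1 UMI of FOXP3, none of CD8A or CD8B, and at most 4 UMIs of C1QA, C1QB and LYZ together. These 1031 cells were a subset of 4144 T cells, of which 2762 had no UMI of a CD8 gene. The other 1731 CD8-negative T cells had no UMI of FOXP3 and are called FOXP3-negative T cells here. A further 1265 cells carried a CD8 gene and no FOXP3 and are called CD8 T cells.

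All mice were immunodeficient MISTRG animals, a strain in which human M-CSF, IL-3 and GM-CSF replace help that human myeloid cells would otherwise lack. All mice of both groups had been irradiated and engrafted with CD34+ cells from human fetal liver. All then received MDA-MB-231 cells, a triple-negative human breast cancer line, in the mammary fat pad. Untreated mice (7) were compared with mice that drank the antiretroviral drug maraviroc (7), at 300 mg/l of drinking water for 10 days from day 21 up to tumor removal on day 31. The human T cells therefore developed in mice from stem cells, the number of stem cell donors is not given in the sources used here, and the tumor line and the T cells came from different people. Each mouse was marked with its own hashtag antibody, and the mice were pooled in 2 droplet reactions, with 4 untreated and 3 maraviroc mice in reaction 1 and 3 untreated and 4 maraviroc mice in reaction 2. Reaction 1 held 133089612 UMIs over 29120 barcodes, of which 7361 were kept. Reaction 2 held 175447534 UMIs over 13582 barcodes, of which 8966 were kept. The limit on hashtag purity alone took reaction 1 from 27645 barcodes to 7361 and reaction 2 from 10161 to 8966, and its part in differences between reactions was not tested. Kept cells had a median of 5785 UMIs in reaction 1 and 10663.5 in reaction 2, whereas Tregs had a median of 7158 UMIs, FOXP3-negative T cells 7063 and CD8 T cells 7392. The reactions had 136 barcode sequences in common, 32 of them among kept cells.

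Tregs are CD4+ T cells whose identity is held by the transcription factor FOXP3. They restrain other T cells, among other ways by taking up interleukin-2 through the high-affinity receptor chain IL2RA (CD25) and by removing costimulatory ligands from antigen-presenting cells through CTLA4. In human tumors they often carry high levels of TNF receptor family members and of homing receptors such as CCR8.

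The number of Tregs differed widely between mice. In reaction 1 the untreated mice held 37, 1, 43 and 70 Tregs and the maraviroc mice 16, 19 and 73. In reaction 2 the untreated mice held 70, 130 and 3 and the maraviroc mice 187, 120, 121 and 141. A single untreated mouse in each reaction thus had almost no Tregs, and these 2 mice, with 1 and 3 cells, were left out of every test of gene levels, which needed at least 10 cells per mouse. The 12 mice that remained gave 5 untreated and 7 maraviroc samples.

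FOXP3 itself chose the cells, so its values are a description. Among Tregs, 283 cells had 1 UMI of FOXP3, 225 had 2 and 523 had 3 or more. Pooled over these cells, the IL2RA level was 418 CPM (counts scaled to a fixed library total) at 1 UMI, 549 CPM at 2 UMIs and 848 CPM at 3 or more. Just outside the rule, the FOXP3-negative T cells stood at 53.6 CPM of IL2RA, and 117 T cells with both FOXP3 and a CD8 gene stood at 349 CPM. On the other limits, 12 Tregs with exactly 3 UMIs of the CD3 and TRAC genes stood at 247 CPM of IL2RA, and 36 FOXP3-positive cells excluded with 1 or 2 such UMIs stood at 655 CPM. The 19 cells excluded with 5 to 8 myeloid UMIs stood at 502 CPM. A further 114 cells had FOXP3 but no CD3 or TRAC, and there IL2RA was at 58.8 CPM and LYZ, a lysozyme gene of myeloid cells, at 1441 CPM.

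FOXP3 was detected in 27.0% of CD8-negative T cells in reaction 1 and in 42.8% in reaction 2. In myeloid cells, which should lack it, the shares were 0.619% (95% exact binomial interval 0.384% to 0.945%, 3393 cells) and 1.51% (1.16% to 1.92%, 4251 cells), at median depths of 6987 and 13047 UMIs. When every cell was thinned to 1500 UMIs, CD8-negative T cells fell to 14.2% and 20.4%, and myeloid cells to 0.152% and 0.0706%. A FOXP3 count of 0 at these depths therefore did not show that a cell lacked the transcript. Such intervals cover counting error only.

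In the comparisons between cell classes, the counts of each mouse were summed per class and the classes of the same mouse were set against each other with edgeR's quasi-likelihood test, with p-values adjusted over all genes tested by the Benjamini-Hochberg method. A gene was called at an adjusted p under 0.05. Against FOXP3-negative T cells, 3113 of 8546 genes were called (36.4%), 1516 of them higher in Tregs (17.7%) and 1597 lower (18.7%). The comparison class was mixed. At least 1 UMI of KLRF1, NCAM1, NCR1, TYROBP or FCER1G, called natural killer (NK) cell genes here, was found in 59.6% of its cells and in 28.4% of Tregs. TYROBP and FCER1G are also genes of myeloid cells, and their part in these shares was not tested. CD4 was detected in 32.1% of the FOXP3-negative T cells against 68.2% of Tregs. For that reason, and as a choice made after seeing the data, the test was repeated with the 511 Tregs and 353 FOXP3-negative T cells that had CD4 and none of these NK genes, in 9 mice. This CD4+ NK-gene-negative comparison called 1307 of 5364 genes (24.4%), 639 higher (11.9%) and 668 lower (12.5%). Of 5363 genes tested both ways, 1035 were called in the same direction, 13 in opposite directions, and 1178 in the wider comparison alone. With CD4 detected as the sole added condition, 1630 of 6192 genes were called (26.3%), 823 higher (13.3%) and 807 lower (13.0%).

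Tregs carried more of their known program than FOXP3-negative T cells. Of 23 tested genes of a Treg program list, from 25, 21 were higher and 1 was lower, against 17.7% and 18.7% of all genes. The median log2 fold change was 1.62 against -0.02 over all genes. In the CD4+ NK-gene-negative comparison 17 of 20 were higher and none was lower, against 11.9% and 12.5% of all genes. The median there was 1.17 against -0.01 over all genes. IL2RA, the alpha chain of the interleukin-2 receptor, ranged from 351 to 1114 normalized CPM over the 12 mice in Tregs (median 651) and from 19.7 to 106.5 in FOXP3-negative T cells (median 57.6). Every mouse was higher in its Tregs and the classes did not overlap. The difference was 11.1-fold (log2 fold change 3.48, SE 0.12, adjusted p = 2.44e-14), and 5.80-fold among CD4+ NK-gene-negative cells. CTLA4, the inhibitory receptor that competes with CD28, lay between 322 and 603 normalized CPM in Tregs (median 435) and between 33.1 and 157 in FOXP3-negative T cells (median 90.3), again without overlap (log2 fold change 2.30, SE 0.13, adjusted p = 1.01e-11). IKZF2, which encodes the Ikaros family factor Helios, lay between 828 and 1583 (median 1339) against 245 to 532 (median 447). Its log2 fold change was 1.57 (SE 0.08, adjusted p = 2.64e-12) and was 1.56 among CD4+ NK-gene-negative cells. LAYN, a hyaluronan receptor, was 128 to 246 (median 204) against 18.5 to 49.9 (median 37.4). This gene was as far apart in the narrower comparison, with log2 fold changes of 2.40 and 2.51. RTKN2 and HPGD, the latter an enzyme that degrades prostaglandin E2, were higher by log2 fold changes of 1.69 and 1.27. The gene that was lower was LGALS1, which encodes galectin-1, at -0.35, and it stood at 0.07 and was not called among CD4+ NK-gene-negative cells. ENTPD1, the ectoenzyme CD39, was not called at 0.23 (adjusted p = 0.132) and was called at 0.89 in the narrower comparison.

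**Figure D1:**
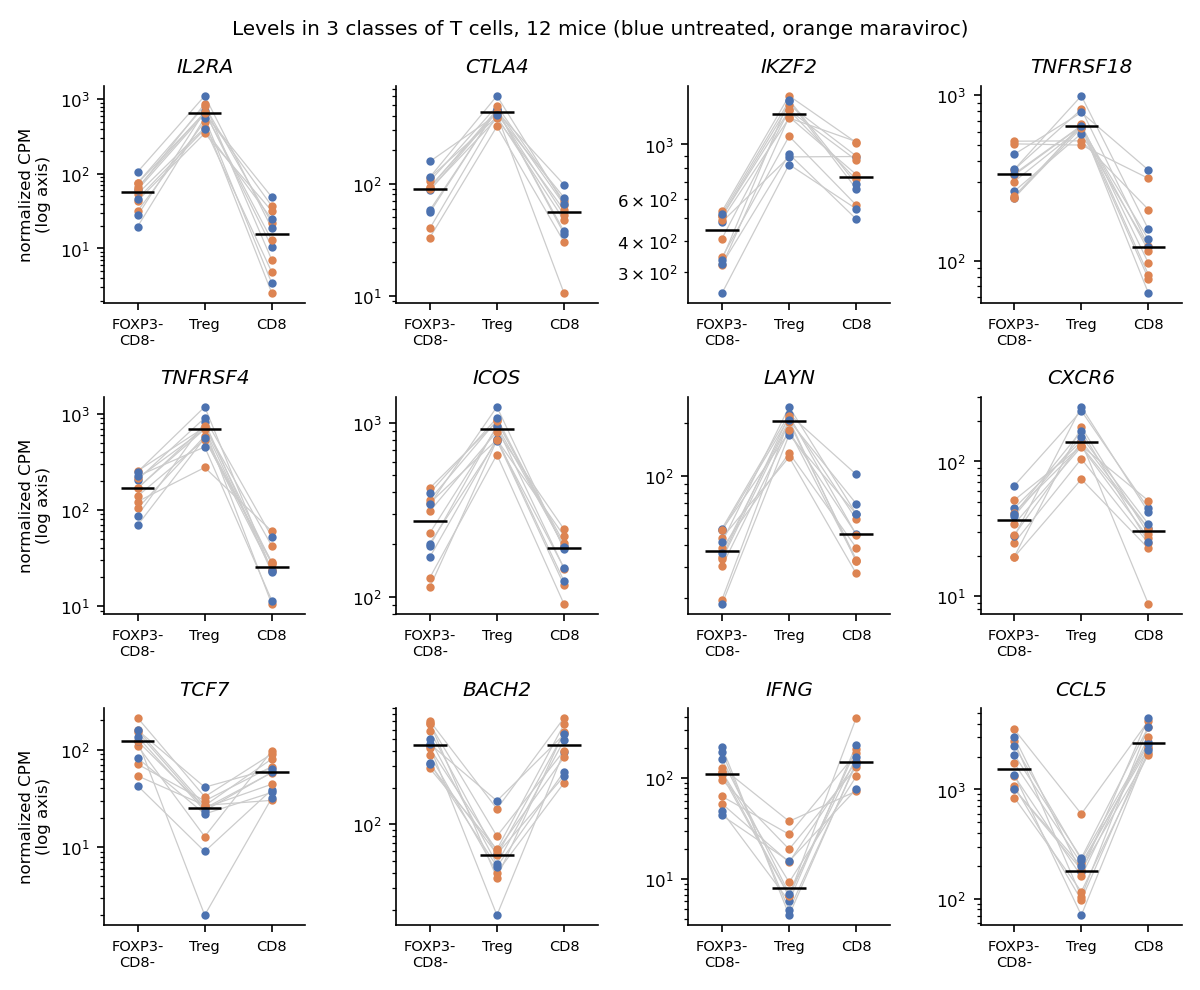
Normalized CPM on a log scale of genes higher in Tregs, and of TCF7, BACH2, IFNG and CCL5, in the 3 T cell classes of 12 mice. Points are mice, lines join the classes of a mouse and black bars are medians. IL2RA medians were 651, 57.6 and 15.7 in Tregs, FOXP3-negative and CD8 T cells, whereas the range of IKZF2 in Tregs (828 to 1583) overlapped that in CD8 T cells (494 to 1028).

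Interleukin-2 signals through IL2RG and JAK1 to STAT5, which induces feedback inhibitors such as CISH. Of 13 genes of this axis, 8 were higher and 1 was lower in Tregs, against 17.7% and 18.7% of all genes. Their median log2 fold change was 0.48. In the narrower comparison 5 of 11 were higher and 2 lower, against 11.9% and 12.5% of all genes, with a median of 0.27. The share of lower members there was near the background. Apart from IL2RA the differences were small, at 0.48 for IL2RG, 0.53 for JAK1, 0.45 for the survival gene BCL2 and 1.05 for CISH. STAT5A, one of the STAT5 genes, was the lower member at -0.49 (SE 0.11, adjusted p = 0.00134).

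Most measured members of the TNF receptor family, which drive NF-kB and support Treg survival, were higher in Tregs. On the list of 13 TNF receptor and NF-kB genes, 9 were higher and 1 was lower, against 17.7% and 18.7% of all genes. Their median log2 fold change was 1.01. In the narrower comparison 7 were higher and 2 lower, against 11.9% and 12.5% of all genes, and the median was 0.48. The share of lower members there was near the background. TNFRSF18 (GITR) stood between 500 and 992 normalized CPM in Tregs (median 654) and between 239 and 528 in FOXP3-negative T cells (median 332). It was higher in the Tregs of 11 of 12 mice, with ranges that overlapped slightly (log2 fold change 1.01, SE 0.11, adjusted p = 2.52e-07). TNFRSF4 (OX40) stood at 276 to 1177 (median 692) against 69.4 to 254 (median 168). These ranges did not overlap, and the log2 fold change was 1.99 (SE 0.14). TNFRSF1B (TNFR2), TNFRSF9 (4-1BB) and TNFRSF8 (CD30) were higher by 1.62, 1.62 and 2.19 on the log2 scale. In the narrower comparison TNFRSF18 and TNFRSF4 stood at log2 fold changes of 1.12 and 1.23, and TNFRSF1B, TNFRSF9 and TNFRSF8 at 1.46, 1.73 and 1.68, all called. LTB, which encodes the ligand lymphotoxin beta, and the adaptor TRAF3 were higher by 1.50 and 1.12. The NF-kB inhibitor gene NFKBIA was lower at -0.32 and was not called in the narrower comparison. Outside the list, TNFRSF11A (RANK) was among the genes with the greatest differences, at 18.3 to 86.7 normalized CPM in Tregs (median 35.8) against 0 to 14.5 (median 3.48), a log2 fold change of 3.37.

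Costimulatory and checkpoint genes stood on both sides. ICOS, a costimulatory receptor, stood at 658 to 1240 normalized CPM in Tregs (median 921) and at 113 to 422 in FOXP3-negative T cells (median 272), without overlap. Its log2 fold change was 1.80, and those of CD28 and the inhibitory receptor TIGIT were 1.61 and 1.06. The inhibitory receptor HAVCR2 (TIM-3) was lower at -1.16, but stood at 0.15 and was not called among CD4+ NK-gene-negative cells. CD96, a receptor of T and NK cells, was lower in both comparisons, at -1.85 and -1.48. On the whole list of 9 tested genes, 5 were higher and 2 lower, against 17.7% and 18.7% of all genes, so that the share of lower members was near the background.

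Transcription factors differed in both directions. Of 20 tested, 9 were higher and 6 lower, against 17.7% and 18.7% of all genes, with a median log2 fold change of 0.03. In the narrower comparison 9 of 17 were higher and 4 lower, against 11.9% and 12.5% of all genes, with a median of 0.33. BATF ranged from 356 to 888 normalized CPM in Tregs (median 597) and from 80.8 to 258 in FOXP3-negative T cells (median 170). The ranges did not overlap, with a log2 fold change of 1.78 (SE 0.09, adjusted p = 1.78e-12). PRDM1, which encodes BLIMP1, MAF, FOXO1 and GATA3 were higher by 1.54, 1.40, 1.32 and 0.84. BACH2, a repressor of effector differentiation, stood at 18.0 to 156 (median 56.3) in Tregs and at 288 to 706 (median 448) in FOXP3-negative T cells. TCF7, which encodes the factor TCF-1 of naive and stem-like T cells, stood at 2.0 to 41.2 (median 25.2) against 42.6 to 212 (median 123). Neither gene overlapped, and the log2 fold changes were -2.99 and -2.51, and -3.51 and -3.12 in the narrower comparison. LEF1, a partner of TCF-1, was lower at -2.65. IKZF3, which encodes Aiolos, was lower at -0.34 in the wide comparison and higher at 0.61 (adjusted p = 0.000843) among CD4+ NK-gene-negative cells.

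Homing receptors moved in both directions. Of 13 tested, 6 were higher and 4 lower, against 17.7% and 18.7% of all genes, with a median log2 fold change of 0.66. In the narrower comparison 4 of 12 were higher and 5 lower, against 11.9% and 12.5%, and the median was -0.01. CCR8, a receptor of tumor Tregs, ranged from 12.8 to 60.1 normalized CPM in Tregs (median 31.8) and from 1.16 to 9.40 in FOXP3-negative T cells (median 3.84), without overlap. Its log2 fold change was 2.76 (SE 0.19, adjusted p = 1.13e-10). CXCR6 and CXCR3, receptors of tissue and of inflamed sites, were higher by 1.99 and 0.95. CCR6 was higher by 1.36 and was not called in the narrower comparison, at 0.53. The bone marrow and tissue retention receptor CXCR4 was lower by a log2 fold change of -1.43. CCR7, which directs cells into lymph nodes, was lower at -2.43, and at -3.53 in the narrower comparison. On the list of naive and memory genes, 0 of 8 were higher and 5 lower, against 17.7% and 18.7% of all genes. In the narrower comparison 0 of 7 were higher and 5 lower, against 11.9% and 12.5%. This list shares CCR7, TCF7, LEF1 and BACH2 with the lists above, so its counts are not separate from theirs.

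Cytokine genes separated the classes strongly. IL10, an inhibitory cytokine, ranged from 15.0 to 187 normalized CPM in Tregs (median 42.7) and from 1.25 to 24.5 in FOXP3-negative T cells (median 3.70). It was higher in the Tregs of all 12 mice although the ranges overlapped, with a log2 fold change of 3.13 (SE 0.30, adjusted p = 2.29e-08), and it was too low to be tested in the narrower comparison. The inhibitory cytokine TGFB1 was lower at -0.93 and the repair factor AREG at -1.80. IFNG, the main type 1 effector cytokine, ranged from 4.38 to 37.3 in Tregs (median 8.22) and from 42.6 to 204 (median 110) in FOXP3-negative T cells. That difference left no overlap, with log2 fold changes of -3.09 and -2.50. CSF2, which encodes GM-CSF, was lower at -3.07. CD40LG, the helper ligand for B cells, was lower at -3.19 and CXCL13, a B cell chemoattractant, at -2.34. In the narrower comparison they stood at -4.84 and -2.90. Of 6 effector cytokines tested, 4 were lower and 1 was higher, against 18.7% and 17.7% of all genes. The higher member was LTA, which encodes lymphotoxin alpha, at 2.06. In the narrower comparison 3 of 4 were lower and 1 higher, against 12.5% and 11.9% of all genes.

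Cytotoxic genes were lower in Tregs than in FOXP3-negative T cells, but several of the calls depended on the comparison class. Of 15 cytotoxic and chemokine genes, 14 were lower and 1 higher, against 18.7% and 17.7% of all genes. Their median log2 fold change was -2.38. Among CD4+ NK-gene-negative cells 8 could be tested, with a median of -0.94. Of these, 4 were lower and 1 higher, against 12.5% and 11.9% of all genes, so that the share of higher members was near the background. NKG7 and GNLY, genes of cytotoxic granules, were lower at -3.50 and -3.64 in the wide comparison, but stood at -0.68 and -0.88 and were not called in the narrower one. GNLY counts in Tregs ran from 45.1 to 1948 normalized CPM (median 435), the highest in a mouse with 16 Tregs, against 2032 to 13237 in FOXP3-negative T cells. After thinning to 1500 UMIs it was detected in 12.1% of Tregs, against 6.81% of myeloid cells and 7.38% of B cells, which should lack it. The part of free RNA in these counts was not tested. GZMA, granzyme A, was lower in both, at -2.23 and -1.85, while GZMB, granzyme B, was lower at -3.60 and was not tested in the narrower comparison. CCL5, a chemokine that attracts T cells and monocytes, stood at 70.9 to 597 normalized CPM in Tregs (median 179) and at 843 to 3543 in FOXP3-negative T cells (median 1554). It did not overlap and was lower in both comparisons, at -3.22 and -1.76. The related chemokines CCL3 and CCL4 were lower at -2.38 and -2.13, of which CCL4 was still called in the narrower comparison, and both have near-identical copies that make their counts uncertain. The cathepsin inhibitor gene CST7 was the higher member, at 0.54 and 1.28.

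The 10 largest log2 fold changes upward, among called genes that moved the same way in at least 80% of mice, were those of IL1R2 (3.91), IL2RA, TNFRSF11A, TMTC1 (3.32), IL10, CACNB2 (3.02), GPAT3 (2.94), ARG2 (2.89), FANK1 (2.79) and CCR8. IL1R2, a decoy receptor for interleukin-1, ranged from 6.71 to 138 normalized CPM in Tregs (median 47.0) and from 0 to 17.8 in FOXP3-negative T cells (median 1.48). TMTC1 encodes a mannosyltransferase, CACNB2 a calcium channel subunit, GPAT3 an enzyme of glycerolipid synthesis and ARG2 the mitochondrial arginase. The 10 largest downward were STYK1 (-4.67), PTGDR (-4.63), KRT81 (-4.48), SLC12A8 (-4.43), XCL2 (-4.40), KLRC2 (-4.30), LDB2 (-4.30), KLRC1 (-4.24), NCAM1 (-4.23) and KLRK1 (-4.23). Among these, NCAM1 (CD56), KLRK1 (NKG2D), KLRC1 (NKG2A), KLRC2 and XCL2 are genes of NK and cytotoxic cells, and KLRC1, KLRC2 and XCL2 have near-identical copies, so their counts are uncertain. In Tregs PTGDR was at 0 in 6 of 12 mice, STYK1 and NCAM1 in 5 and KRT81, SLC12A8 and KLRC2 in 4, so these fitted values rest on few UMIs and their order is uncertain. None of these 10 was tested in the CD4+ NK-gene-negative comparison. Over the 7 NK markers on the fixed list, the summed level was 50.3 to 306 normalized CPM in Tregs (median 125) with TYROBP the most abundant, and 425 to 2523 in FOXP3-negative T cells (median 1203) with KLRC1 the most abundant. Each of the 7 was detected in at least 1 mouse in both classes. In Tregs, however, KLRF1 was at 0 in most mice and reached only 1.83 normalized CPM. The 8 macrophage markers summed to 75.9 to 269 in Tregs (median 148) and 94.6 to 369 in FOXP3-negative T cells (median 127).

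**Figure D2:**
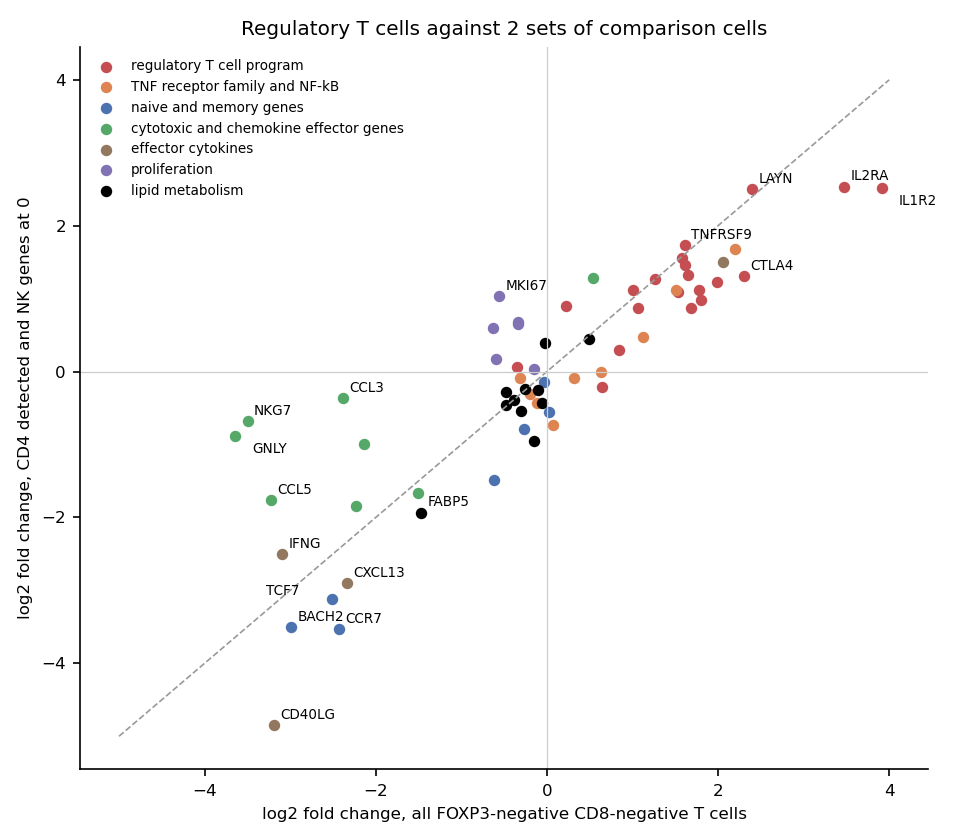
Log2 fold changes of list genes in Tregs against all FOXP3-negative T cells (x axis) and in the CD4+ NK-gene-negative comparison (y axis); the dashed line marks equal values. IL2RA stood at 3.48 and 2.54, whereas MKI67 stood at -0.56 and 1.04.

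Lipid, interferon and proliferation genes were read against the 17.7% of all genes that were higher and the 18.7% that were lower, or 11.9% and 12.5% in the narrower comparison. Of 11 lipid genes tested, 1 was higher and 5 were lower, with a median log2 fold change of -0.26. FABP5, a fatty acid-binding protein, ranged from 29.9 to 108 normalized CPM in Tregs (median 64.4) and from 120 to 277 in FOXP3-negative T cells (median 168). Its ranges did not overlap and it was lower in both comparisons, at -1.47 and -1.93, while INSIG1, a brake on sterol synthesis, was the higher member at 0.50 and was not called in the narrower comparison. Among 11 interferon response genes, 6 were higher, such as IFI6 (0.66) and OAS1 (0.77), and 2 lower, such as IFI44L (-0.38). The narrower comparison had 2 higher and 1 lower of 11, shares near the background. Among 8 proliferation genes 3 were lower and none higher, while in the narrower comparison 2 of 6 were higher and none lower. MKI67, which marks cycling cells, was called in both, at -0.56 and 1.04, in opposite directions, and STMN1 stood at -0.34 (adjusted p = 0.0504) and 0.68. The immediate early and heat shock genes, which also respond to tissue handling, held 5 lower genes of 10, among them FOS (-1.25) and JUN (-0.53), with a median of -0.23. In the narrower comparison 6 of 9 were lower, with a median of -0.53. Whether handling took part in these differences was not tested.

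Against CD8 T cells, 3432 of 7631 genes were called (45.0%), 1772 higher in Tregs (23.2%) and 1660 lower (21.8%). The 10 largest upward changes were FANK1 (6.41), TMTC1 (5.76), IL2RA (5.15), ADTRP (5.07), DLGAP1 (4.80), HLF (4.70), TNFRSF4 (4.68), TNFRSF11A (4.51), ITGB8 (4.41) and IL10 (4.39). FANK1 was at 0 in the CD8 T cells of 7 of 12 mice, TMTC1 in 8, TNFRSF11A and ITGB8 in 6 and HLF and IL10 in 5, so their fitted values rest on few UMIs and their order is uncertain. ITGB8 is an integrin chain that activates latent TGF-beta, and HLF a leucine zipper factor. ITGB8 ranged from 17.5 to 53.4 normalized CPM in Tregs (median 31.1), from 0 to 21.1 in FOXP3-negative T cells (median 7.85) and from 0 to 5.64 in CD8 T cells (median 0.229). The 10 largest downward changes were TRGC2 (-6.34), NHS (-4.71), KLRK1 (-4.67), KIAA1671 (-4.63), TRGC1 (-4.49), ITGA1 (-4.48), GZMH (-4.34), SLC12A8 (-4.33), HOPX (-4.31) and KLRC1 (-4.30). The same holds downward for TRGC2 and KIAA1671, which were at 0 in the Tregs of 5 mice, SLC12A8 in 4 and NHS in 3. TRGC1 and TRGC2 encode near-identical constant regions of the gamma chain of the T cell receptor, so their counts are uncertain, and ITGA1 and HOPX mark tissue-resident and cytotoxic T cells.

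The program genes were ordered differently by class. By their medians IL2RA and CTLA4 were highest in Tregs and lowest in CD8 T cells, whose ranges overlapped those of FOXP3-negative T cells. In CD8 T cells they ranged from 2.52 to 48.9 and from 10.6 to 97.7 normalized CPM. IKZF2 did not follow that order. It ranged from 494 to 1028 in CD8 T cells (median 735), above its median of 447 in FOXP3-negative T cells, so that its log2 fold change against CD8 T cells was only 0.74 (SE 0.08, adjusted p = 1.90e-07). Of 11 homing receptors tested against CD8 T cells, 8 were higher and 3 lower, against 23.2% and 21.8% of all genes. The share of lower homing receptors was thus near the background. Log2 fold changes were 3.67 for CCR6 and 2.83 for CCR4, a receptor for chemokines CCL17 and CCL22. MAF, CD28 and the interleukin-7 receptor gene IL7R were higher by 3.25, 3.19 and 2.17. ITGAE, the CD103 integrin chain that binds E-cadherin, was lower at -1.59, and the checkpoint receptor LAG3 at -0.50. Of 15 cytotoxic and chemokine genes 14 were lower and none higher, against 21.8% and 23.2% of all genes, with a median of -3.07. The 7 NK markers summed to 464 to 1756 normalized CPM in CD8 T cells (median 717). All 8 proliferation genes were lower, against 21.8% of all genes, with a median of -0.66, among them MKI67 at -0.86. Of 5 naive and memory genes, 3 were higher and 2 lower, against 23.2% and 21.8% of all genes. KLF2, a factor of recirculating cells, was higher than in CD8 T cells at 1.02, while TCF7 and BACH2 were lower at -1.36 and -2.90.

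When cells were thinned to 1500 UMIs, which left out 16 Tregs, IL2RA was detected in 47.4% of Tregs, 6.72% of FOXP3-negative T cells, 2.47% of CD8 T cells and 1.57% of myeloid cells. CTLA4 was detected in 44.7%, 12.3% and 8.84% of the same T cell classes and in 0.239% of myeloid cells. CCR8 was found in 4.93% of Tregs, 0.773% of FOXP3-negative T cells and no thinned CD8 T cell. IL1R2 was not confined to Tregs, since it was found in 7.49% of them and in 3.82% of myeloid cells.

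**Figure D3:**
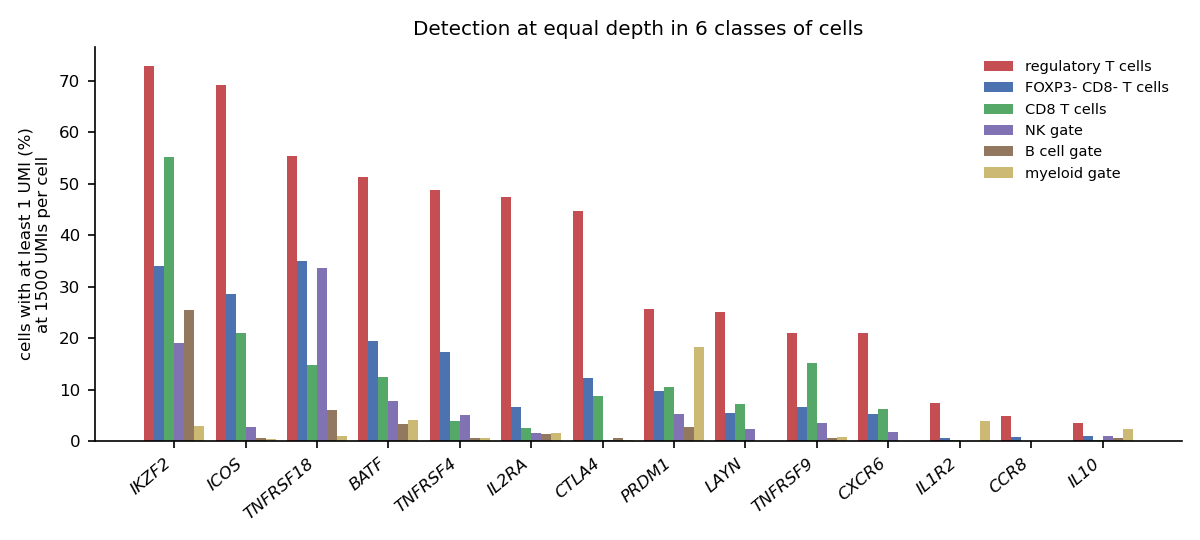
Percent of cells with at least 1 UMI after thinning each cell to 1500 UMIs, by gene and cell class. IL2RA was detected in 47.4% of Tregs and 6.72% of FOXP3-negative T cells, and IKZF2 in 72.9% of Tregs and 55.3% of CD8 T cells.

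Tregs varied among themselves. After the same thinning, 294 of 1015 Tregs (29.0%) had a UMI of the activation genes TNFRSF9, CCR8 or IL1R2, with 5.56% to 43.1% per mouse. Pooled over those cells, TNFRSF18 stood at 1025 CPM against 537 CPM in the other Tregs, IL2RA at 975 against 589 and BATF at 836 against 511. A smaller set of 46 Tregs (4.53%) had a UMI of the naive and memory genes CCR7, TCF7 or LEF1, with 0% to 10% per mouse. There KLF2 stood at 274 CPM against 97.3 in the rest, and TNFRSF18 at 461 against 686. The sets shared 7 cells, which were 15.2% of the smaller and 2.38% of the larger. MKI67 or TOP2A was found in 129 Tregs (12.7%), whose median depth before thinning was 12430 UMIs against 6885.5 in the rest. Their IL2RA stood at 526 CPM against 742. CXCL13 was found in 28 Tregs (2.76%), in which IL2RA stood at 173 CPM against 715 and FOXP3 at 239 against 416. The sets were chosen by single genes on the same counts, so these values carry no test.

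The effect of maraviroc was first asked of the number of Tregs. Tregs were 25.9%, 1.09%, 38.7% and 37.4% of CD8-negative T cells in the untreated mice of reaction 1 and 13.2%, 12.9% and 45.9% in its maraviroc mice. In reaction 2 they were 24.7%, 50.0% and 4.29% in untreated mice and 48.8%, 46.7%, 48.4% and 47.2% in maraviroc mice. The groups overlapped in both reactions, and the maraviroc mice of reaction 2 were the most alike. Untreated mice had a mean of 26.0% ± 18.1 and maraviroc mice one of 37.6% ± 16.8 (SD, n = 7 each). With mice permuted within reactions, the difference was 9.83 percentage points (two-sided exact permutation test, p = 0.300, the smallest possible p being 0.000816). It was -1.76 points in reaction 1 (exact p = 0.83) and 21.4 points in reaction 2 (exact p = 0.143), where 4 against 3 mice cannot go below 0.0286. Of all kept cells, the Treg share was 4.26% ± 3.17 without the drug and 7.64% ± 4.67 with it (SD, 7 mice each), a difference of 2.78 points within reactions (exact permutation p = 0.175). By reaction this second difference was -0.138 points in reaction 1 and 5.69 points in reaction 2 (exact permutation p = 0.0857 in reaction 2). Single mice weighed heavily on the first difference. It was 4.36 points without the third maraviroc mouse of reaction 1, 5.72 without the second untreated mouse of reaction 1, 4.32 without the third untreated mouse of reaction 2 and 15.7 without the second untreated mouse of reaction 2. On all kept cells it was 1.69 without the third maraviroc mouse of reaction 1 and 1.61 without the third untreated mouse of reaction 2. When every cell was thinned to 1500 UMIs before the rule was applied and shallower cells were left out, the differences were 4.40 points of CD8-negative T cells and 0.796 points of all kept cells (exact permutation p = 0.318 and 0.312). With myeloid and B cell genes at 0 the latter was 1.44 points. Among CD8-negative T cells with CD4 detected the difference was 13.9 points (exact permutation p = 0.273), and among those with NK genes at 0 it was 13.4 points (exact permutation p = 0.156).

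**Figure D4:**
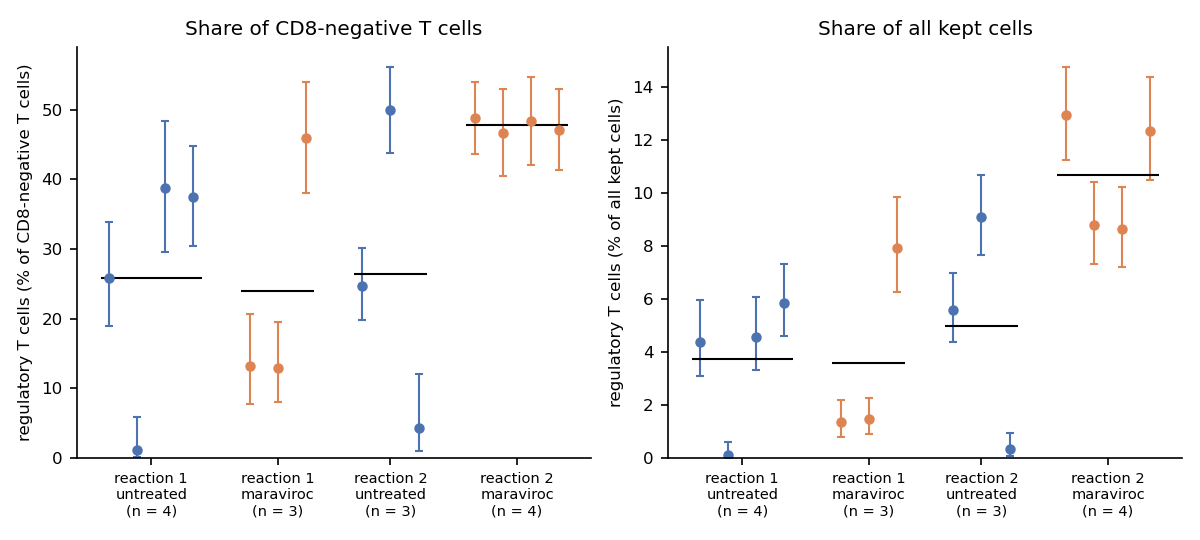
Tregs as a percent of CD8-negative T cells in each of 14 mice, by reaction and treatment. Error bars are 95% exact binomial intervals and black bars are group means; the 4 maraviroc mice of reaction 2 lie between 46.7% and 48.8%, and untreated mice span 1.09% to 50.0%.

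No gene was called between maraviroc and untreated Tregs. Of 7451 genes tested over 12 mice with the reaction as a block, 0 were called by edgeR's quasi-likelihood test (0.00%), with a lowest adjusted p of 0.964, and 0 by DESeq2. At an unadjusted p under 0.05 there were 336 genes (4.51%) with edgeR, 179 higher and 157 lower, and 219 with DESeq2. The median SE of a log2 fold change was 0.19. Among 134 tested genes of the lists, 12 had an unadjusted p under 0.05, and the median log2 fold change was -0.05 against 0.00 over all genes. On the Treg program list 5 of 23 had an unadjusted p under 0.05 and 5 stood above 0, with a median of -0.21, and of 11 interferon genes 1 stood above 0, with a median of -0.19. None of these genes was called. These p-values set each difference against the spread between mice.

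The Treg markers overlapped between the groups. FOXP3, whose level depends on the rule, stood at 451, 475, 466, 360 and 485 normalized CPM in untreated mice and from 392 to 642 in maraviroc mice (median 423). IL2RA stood at 565, 691, 642, 398 and 1114 in untreated mice and from 351 to 876 in maraviroc mice (median 660). The 3 maraviroc mice of reaction 1 lay below its untreated mice, whereas the groups of reaction 2 overlapped. The log2 fold change of IL2RA was -0.27 (SE 0.19, 95% interval -0.64 to 0.10, adjusted p = 1.0), that is -0.56 in reaction 1 and -0.02 in reaction 2. The sign in reaction 2 depended on the measure, since the mean of log2(CPM + 1) was higher by 0.18 in its maraviroc mice. Leaving out a mouse gave -0.56 to -0.03. CTLA4 stood at 455, 460, 436, 411 and 603 against 322 to 490 (median 410), a log2 fold change of -0.21 (SE 0.11). TNFRSF18 stood at 587, 634, 788, 656 and 992 against 500 to 823 (median 652), also -0.21 (SE 0.13). Both ranges overlapped, and neither gene was called. Leaving out a mouse gave -0.30 to -0.06 for CTLA4 and -0.36 to -0.04 for TNFRSF18.

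IKZF2 and IL10 had differences of opposite sign in the reactions, but neither contrast between reactions passed after adjustment (exact permutation, adjusted p = 0.10 and 0.0667 over 10 tests). IL10 was added after its values were seen, a choice that the adjustment does not cover. IKZF2 stood at 828, 889, 912, 1522 and 1509 normalized CPM in untreated mice, the first 3 from reaction 1, and from 1081 to 1583 in maraviroc mice (median 1379). In reaction 1 all maraviroc mice lay above all untreated mice, and in reaction 2 they overlapped. Its log2 fold change was 0.21 (SE 0.11, adjusted p = 1.0), made of 0.55 in reaction 1 and -0.08 in reaction 2. IL10 stood at 17.5, 15.0, 22.0, 75.3 and 62.1 in untreated mice and from 18.6 to 187 in maraviroc mice (median 48.3), with the maraviroc mice above in reaction 1 and below in reaction 2. FABP5 had a log2 fold change of 0.40 (SE 0.21), with 0.21 to 0.56 on leaving out a mouse, and was not called. The summed NK markers in Tregs were 59.2 to 306 normalized CPM in untreated mice (median 180) and 50.3 to 172 in maraviroc mice (median 114). These markers include TYROBP, the most abundant of them in Tregs, and FCER1G, which are also genes of myeloid cells. The part of NK or myeloid RNA in the Treg levels was not tested. The levels were summed over the Tregs of a mouse, and the share of Tregs that carried each transcript was not compared between treatments. The sources used here do not say which stem cell donors served each reaction, so the part of donors in differences between reactions was not tested.

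**Figure D5:**
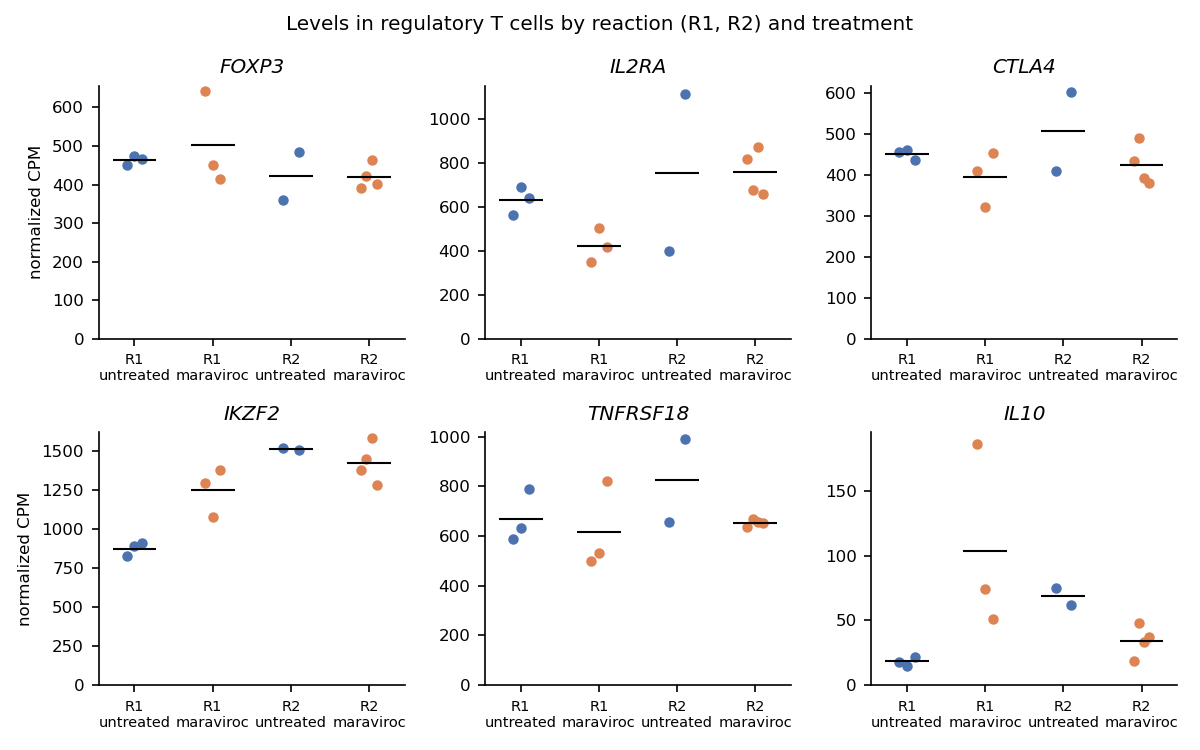
Normalized CPM of FOXP3, IL2RA, CTLA4, IKZF2, TNFRSF18 and IL10 in Tregs of 5 untreated and 7 maraviroc mice; points are mice, split by reaction (R1, R2), and black bars are means. IKZF2 in reaction 1 lies at 828 to 912 in untreated and 1081 to 1379 in maraviroc mice, without such a split in reaction 2.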

How the data were processed

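The authors deposited UMI counts per gene and hashtag for the barcodes called as cells, without normalization. The submitters' processing notes name Cell Ranger 9.0.1, the genome build GRCh38 and Seurat 5.1.0. Treatment was read from the hashtag names CTRL and MARAVIROC. Barcodes with more than 600 and at most 6000 genes, under 12.5% mitochondrial counts and at least 60% of hashtag UMIs on 1 hashtag were kept. No doublet caller was run. How many doublets the hashtag limit left in was not measured.

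Counts were summed per mouse and class and tested with edgeR 4.0.16 in R 4.3.3 (TMM normalization, filterByExpr, quasi-likelihood test), with a block for the mouse between classes and for the reaction between treatments. DESeq2 1.42.0 was the alternative tool. Normalized CPM are counts scaled to 1 fixed library total after TMM. Shares were compared by exact permutation with scipy 1.17.1. On simulated data, edgeR found 97.4% of 192 genes changed by 1 on the log2 scale between Tregs and FOXP3-negative T cells (12 false calls, 8405 genes) and 82.4% of 182 such genes between treatments (6 false calls, 7277 genes).

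The members, lists and tests were chosen with earlier results of these data known. The genes named are those of the lists, the 10 largest called changes in each direction that held in at least 80% of mice and, between treatments, FOXP3, IL2RA, CTLA4, IKZF2 and TNFRSF18, apart from genes not reported here. FABP5 and IL10 were added between treatments after their values were seen. Sex-linked marker genes, HLA, mitochondrial and ribosomal genes and variable receptor segments were left out. The extra marker lists covered B cells, plasma cells, dendritic cells, plasmacytoid dendritic cells, mast cells, carcinoma cells and erythroid cells. Comparisons with the NK genes at 0, with CD4 as well, with 1 cell per mouse, and the shares of the same cells, were added after seeing the data.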

Additional observations from a re-analysis of the deposited data

Results flagged for a closer look

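Some mice stood apart from the rest of their group in the normalized CPM of Treg genes. Of 22 groups of mice examined, 4 held such a mouse, and how many chance alone would give was not measured. FOXP3 was 360 in the first untreated mouse of reaction 2 (451 to 485 in the other untreated mice) and 642 in the first maraviroc mouse of reaction 1 (392 to 463 in the others). CTLA4 was 603 in the second untreated mouse of reaction 2 (411 to 460 in the others). IL10 was 187 in the first maraviroc mouse of reaction 1, which gave 16 Tregs (18.6 to 73.8 in the others).

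The IL10 difference between maraviroc and untreated Tregs had opposite signs in the reactions. The maraviroc mice of reaction 1 stood at 187, 73.8 and 51.3 normalized CPM of IL10 and its untreated mice at 17.5, 15.0 and 22.0, whereas in reaction 2 the maraviroc mice stood at 18.6, 48.3, 33.5 and 37.1 and the untreated mice at 75.3 and 62.1. The groups were thus apart in both reactions, in opposite directions. The difference of the differences was -3.30 on the scale of log2(CPM + 1) (exact permutation within reactions, p = 0.00667, adjusted p = 0.0667 over 10 such tests, smallest possible p 0.00333). IL10 was added after its values were seen, a choice that the adjustment does not cover, so these p-values are a description. The same test gave -0.60 for IKZF2 (exact permutation p = 0.0200, adjusted p = 0.10). Neither passed after adjustment.

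FOXP3 was also detected outside the Tregs described, in T cells with a CD8 gene. The share was 7.17% in reaction 1 (95% exact binomial interval 5.05% to 9.83%) and 9.17% in reaction 2 (7.36% to 11.3%), at median depths of 6875 and 7680.5 UMIs, above the 0.619% and 1.51% of myeloid cells. After thinning to 1500 UMIs the shares were 2.48% and 4.16%.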

How the results depend on the processing

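The genes called against FOXP3-negative T cells (3113) fell to 1551 in reaction 1 alone, 1962 with myeloid and B cell genes at 0, 1630 with CD4 detected, 1044 with cells thinned to equal depth, 1619 with NK genes at 0 and 1307 with CD4 detected and NK genes at 0, where fewer cells, mice or genes entered. Those called against CD8 T cells (3432) fell to 1405 in reaction 1 alone. Leaving out a mouse gave 2813 to 3105 and 3076 to 3597. Between treatments 52 genes of 22118 were called without a filter on low counts and 1 with the top hashtag at 80% or more, and 0 on leaving out any mouse. The share differences were -1.76 and -0.138 points in reaction 1 alone, 4.40 and 0.796 with cells thinned before the rule was applied, and 4.32 to 15.7 and 1.61 to 3.80 on leaving out a mouse.

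With CD4 detected, with NK genes at 0, and with both, the log2 fold changes that turned were 0.48, 0.64 and 1.04 for MKI67, 0.25, 0.34 and 0.68 for STMN1 and 0.26, 0.23 and 0.61 for IKZF3. HAVCR2 turned to 0.043 with CD4 and 0.15 with both and LGALS1 to 0.13 with NK genes at 0 and 0.066 with both. Between treatments, IKZF2 was -0.083 in reaction 2 alone. FOXP3 was -0.070 with at least 20 cells per mouse, -0.020 in reaction 2 alone, -0.016 with the top hashtag at 80%, -0.014 with myeloid and B cell genes at 0, -0.056 without the first maraviroc mouse of reaction 1 and -0.039 without the first untreated mouse of reaction 2, with -0.056 to 0.14 on leaving out a mouse. TNFRSF18 was 0.010 with myeloid and B cell genes at 0. The cause of these turns was not tested. Of 85 named genes refitted against FOXP3-negative T cells, 66 kept direction and call in every refit that tested them, and of 41 against CD8 T cells, 39. Many of these genes were named because they were called in the same data, so these counts do not describe all genes. Of 2226 genes called in the wide comparison and also tested in the CD4+ NK-gene-negative one, 1178 were not called there. No paired analysis was possible because the hashtag names carry no replicate number that would pair untreated with maraviroc mice. Cell classes were compared within mice. Depth limits genes with few UMIs, such as CCR8, and mice with few Tregs.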

Other observations

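The summed B cell and plasma cell markers were higher in Tregs than in FOXP3-negative T cells mainly through CD79B and MZB1. Summed over each list in normalized CPM per mouse, B cell markers had a median of 97.6 in Tregs, with CD79B the most abundant, 57.5 in FOXP3-negative T cells and 30.4 in CD8 T cells. Plasma cell markers had medians of 91.2, 51.9 and 39.0, with MZB1 the most abundant in Tregs, macrophage markers 148, 127 and 122, and dendritic cell markers 19.1, 17.3 and 16.9. CD79B had a mean of 90.8 in Tregs and 32.0 in FOXP3-negative T cells and MZB1 one of 88.6 and 27.2, whereas MS4A1 stood at 3.28 and 10.1 and JCHAIN at 3.26 and 28.2. Their part in the differences between classes was not tested. Carcinoma cell markers had medians of 6.36 in Tregs and 12.3 in FOXP3-negative T cells. Plasmacytoid dendritic cell, mast cell and erythroid markers had medians of 0, 0.49 and 0 in Tregs, but mast cell markers reached 156 in 1 mouse. HBA1 and HBA2 were at 0 in the Tregs of the 12 mice.

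IL10 was found in 35 thinned Tregs (3.45%), a small set chosen after its values were seen. Pooled over these cells, CTLA4 stood at 735 CPM against 417 in the other Tregs and BATF at 999 against 590, while IL2RA stood at 517 against 705. In the treatment comparison the 3 lowest unadjusted p-values belonged to PTPRM (log2 fold change 1.38, unadjusted p = 0.000129, adjusted p = 0.964), CD70 (1.31) and NAV2 (-1.94). CD70, the ligand of CD27, and the other 2 were not called.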
